A study of Mus musculus with 18 samples.

Results

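Lymphatic endothelial cells (LEC), the cells that line lymphatic vessels, were compared between embryonic day 16.5 (E16.5) and embryonic day 14.5 (E14.5) of mouse development. The comparison rests on 3 LEC arrays at E16.5 and 3 LEC arrays at E14.5, which are 6 of the 18 arrays of the series, and on all 19938 genes that a single-symbol transcript cluster represented among 35556 clusters. Where a gene had several clusters, the one with the highest mean was taken. The other 12 arrays hold LEC at E18.5 and blood vascular endothelial cells (BEC) at E16.5, E14.5 and E18.5, with 3 arrays per group. Within a group each array was made from total RNA of embryonic cells of a separate litter, per the labels. LEC and BEC arrays of the same age and number come from matching litters. The labels give no strain, genotype, treatment or number of pooled embryos, and they give the isolation of the cells only as a citation. The title of the series concerns the control of LEC identity through an enhancer bound by the transcription factor GATA2.

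Lymphatic vessels of the mouse arise when venous endothelial cells switch on the homeodomain factor PROX1, leave the vein and grow as a network of sprouts under the growth factor VEGFC and its receptor VEGFR3. Over the following days this primary plexus is remodelled into absorptive capillaries and into collecting vessels, which acquire intraluminal valves. The transcription factors FOXC2, NFATC1 and GATA2, gap junction proteins, and the shear of flowing lymph are known to take part in valve formation. In the mouse the first valve-forming clusters of cells are seen in the days covered by these samples.

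Values are log2 expression values made by RMA on Affymetrix Mouse Gene 1.0 ST arrays, so that a difference of 1 is a 2-fold difference. Levels on this scale are not compared between genes. The 3 arrays at E16.5 correlated with each other at 0.993 to 0.994, the 3 arrays at E14.5 at 0.995 to 0.996, and arrays of different age at 0.981 to 0.987. Prox1, Lyve1, Flt4, Pdpn, Nrp2, Reln and Mmrn1, which mark lymphatic endothelium, and Pecam1, Cdh5, Tie1, Tek, Kdr and Erg, which mark all endothelium, lay above 8 in the mean of both LEC groups. The level below which 95% of 1194 olfactory and vomeronasal receptor genes lay was 4.58, and it serves as a bound for dim genes. Of 19 macrophage markers 13 were higher at E16.5 and 3 lay below this bound at E14.5, and of 12 mast cell markers 6 were higher at E16.5 and 2 lay below the bound at E14.5. E16.5 replicate 2 held less of the macrophage markers than the other E16.5 arrays, with a median difference of -0.90 over 19 measured markers. In RNA from pooled cells, more cells of a type and more RNA per cell cannot be told apart, and this holds for every gene below.

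Between E14.5 and E16.5 the LEC changed at 2749 of 19938 genes (limma, adjusted p under 0.05). Of all genes, 1608 rose, which is 8.07%, and 1141 fell, which is 5.72%. These shares are the background for every count of LEC list members below. The lists were chosen with earlier results of these data known, so a share above the background is a description and no independent support. With genes below the dim bound in every group left out, 1864 of 14975 genes rose and 1364 fell. Large changes were mostly rises, since 288 genes rose and 30 fell by 1 or more on the log2 scale. The 3 arrays of 1 age lay entirely on one side of the 3 arrays of the other for 1592 of the genes that rose and for 1130 of those that fell, and for 36.5% of all genes. The median difference over all genes was -0.03. The number of calls depended on the arrays used. It was 1758 without E16.5 replicate 1 and 1768 without E14.5 replicate 3.

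**Figure D1:**
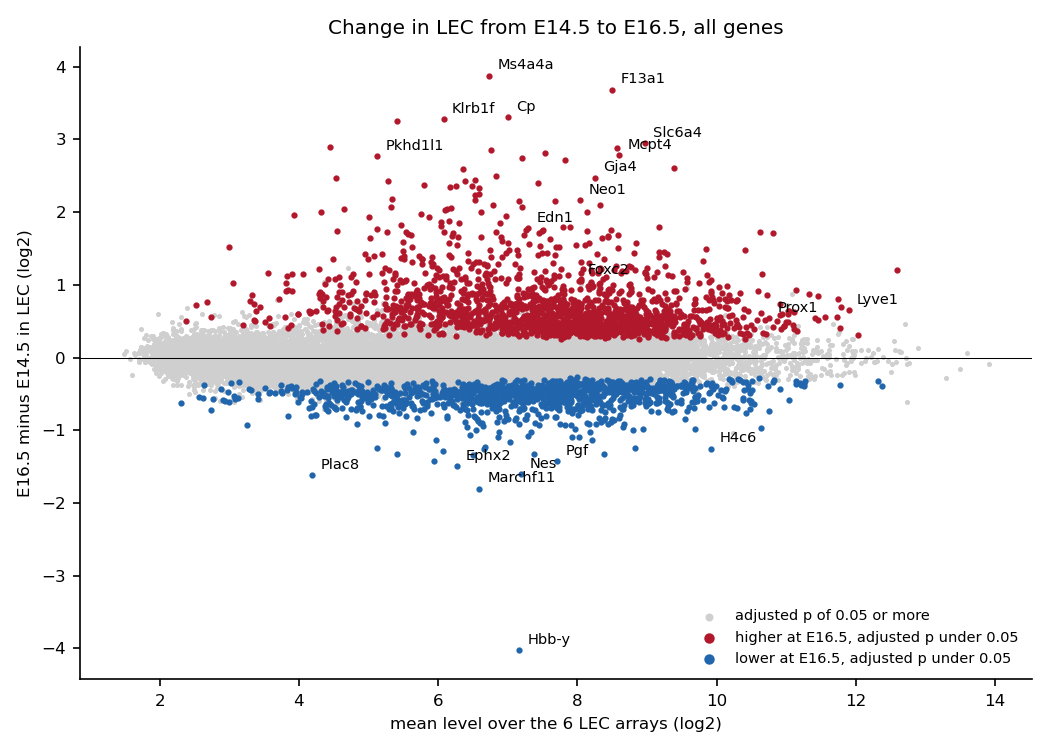
Each point is 1 of 19938 genes, with its mean level over the 6 LEC arrays (log2) on the horizontal axis and the difference of E16.5 minus E14.5 in LEC (log2) on the vertical axis. Red points rose and blue points fell at an adjusted p under 0.05, and grey points did not pass. Most points past 1 on the log2 scale are rises, led by Ms4a4a (3.88) and F13a1 (3.68), while Hbb-y (-4.03) stands alone at the bottom.

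Of the 12 largest rises, at least 6 were genes known from myeloid and mast cells. Ms4a4a, a tetraspan surface protein of macrophages, had 9.08, 8.02 and 8.91 at E16.5, against 5.17, 5.0 and 4.22 at E14.5, and F13a1, the A subunit of coagulation factor XIII, had 10.91, 9.28 and 10.84 at E16.5, against 6.69, 6.82 and 6.47 at E14.5. For both genes E16.5 replicate 2 was the lowest of its group and still lay above every E14.5 array. Ms4a4a rose by 3.88 ± 0.30 (SE, adjusted p = 8.7e-08) and F13a1 rose by 3.68 ± 0.33 (adjusted p = 6.9e-07). Cd163, a haemoglobin scavenger receptor of macrophages, rose at least 5.49-fold (adjusted p = 5e-07), and Lilr4b, an inhibitory receptor of leukocytes, rose by 2.89 ± 0.36. The mast cell protease Mcpt4 rose by 2.79 ± 0.45 and Mrgprb2, the mast cell receptor for cationic secretagogues, rose at least 2.49-fold (adjusted p = 7.3e-06). Klrb1f, a lectin-like receptor of the natural killer cell family, rose by 3.28 ± 0.20. Where all 3 arrays of an age lay below the dim bound, a fold is given as at least the distance of the other age from that bound. This holds at E14.5 for Cd163, Mrgprb2 and Pkhd1l1, and 2 of the 3 E14.5 arrays of Klrb1f also lay below it, so the place of these 4 genes in the order of rises is open to the dim signal.

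The other 5 of the 12 largest rises were Cp, Slc6a4, Anpep, Slc7a8 and Pkhd1l1. No marker list used here holds them, and which cells their RNA came from was not tested. Cp, which encodes the copper-carrying ferroxidase ceruloplasmin, had 8.79, 8.50 and 8.69 at E16.5, against 4.97, 5.67 and 5.42 at E14.5, a 9.91-fold rise of 3.31 ± 0.19 (adjusted p = 7.1e-09). The SD over its 3 E16.5 arrays was 0.15, and replicate 2 was the lowest of the 3. Slc6a4, the serotonin transporter, rose by 2.95 ± 0.37. Anpep, which encodes aminopeptidase N, rose by 2.86 ± 0.17, and Slc7a8, a transporter of neutral amino acids, rose by 2.81 ± 0.26. Pkhd1l1, which encodes the large membrane protein fibrocystin-L, had 6.55, 6.22 and 6.77 at E16.5, against 3.31, 4.03 and 3.88 at E14.5 and rose at least 3.83-fold (adjusted p = 1.1e-08), with no overlap of the ages.

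Among the 12 largest falls, 3 were genes of red blood cells. Hbb-y, the beta-like globin of embryonic red cells, had 5.24, 5.43 and 4.77 at E16.5, against 9.33, 8.87 and 9.31 at E14.5, so that all 3 E16.5 arrays lay far below all E14.5 arrays. It fell by 4.03 ± 0.27 (adjusted p = 2.1e-08), and Hba-x, the embryonic alpha-like globin, fell by 1.42 ± 0.17. Car1, a carbonic anhydrase of red cells, fell by 1.28 ± 0.20. The other 9 were no erythroid markers. Pgf, the placental growth factor that binds the VEGF receptor FLT1, had 6.87, 7.50 and 6.61 at E16.5, against 8.58, 8.12 and 8.56 at E14.5 and fell by 1.43 ± 0.22 (adjusted p = 0.00019). Nes, the intermediate filament protein nestin, fell by 1.61 ± 0.16, and Ephx2, the soluble epoxide hydrolase that inactivates vasodilator lipids, fell by 1.50 ± 0.15. Marchf11, a membrane-bound ubiquitin ligase, fell by 1.80 ± 0.22 in its brightest cluster, while its other cluster differed by -0.79. Plac8, below the dim bound in all 3 E16.5 arrays, fell at least 1.33-fold (adjusted p = 6.4e-05), and St8sia1, the synthase of ganglioside GD3, fell by 1.33 ± 0.17. Macrod2 fell by 1.34 ± 0.22 in its brightest cluster, while its other clusters differed by -0.58 to 0.11. The glutamate receptor subunit Gria2 fell by 1.33 ± 0.18 and the imprinted gene Nnat fell by 1.32 ± 0.15.

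Some genes of lymphatic identity rose. On the list of lymphatic endothelial identity, 7 of 20 measured members rose, 1 fell and 12 did not pass the test, and the median difference was 0.19. The rises made up 35.0% of the list, against 8.07% of all genes. All 20 members lay above the dim bound in at least 1 LEC group of the step, as did 14098 of 19938 genes. Prox1, the factor that specifies lymphatic fate, had 10.92, 10.99 and 11.15 at E16.5, against 10.52, 10.48 and 10.46 at E14.5. All E16.5 arrays were above all E14.5 arrays, and Prox1 rose by 0.54 ± 0.15 (adjusted p = 0.024), a 1.45-fold difference. Lyve1, the hyaluronan receptor of lymphatic capillaries, had 12.20, 12.25 and 12.21 at E16.5, against 11.42, 11.63 and 11.66 at E14.5, again with no overlap, and rose by 0.65 ± 0.13 (adjusted p = 0.002). Fgl2, a fibrinogen-like protein, had the largest rise of the list at 1.72 ± 0.15, followed by the sodium channel Scn3a at 1.20 ± 0.14 and Stab2, a scavenger receptor for hyaluronan, at 0.78 ± 0.15. Mmrn1, which encodes the matrix protein multimerin, rose by 0.70 ± 0.17. Nrp2, the co-receptor for VEGFC, was the 1 member that fell, by 0.32 ± 0.10 (adjusted p = 0.041). With 1 array left out, the call was lost for Prox1 without E16.5 replicate 2 or 3 or E14.5 replicate 1, 2 or 3 (0.47 to 0.55) and Nrp2 without E16.5 replicate 1 or 2 or E14.5 replicate 1, 2 or 3 (-0.34 to -0.29).

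The remaining identity genes did not pass the test, and neither did Gata2, which is on the valve list and on that of haematopoietic regulators. Gata2 had 11.01, 10.93 and 10.96 at E16.5, against 10.69, 10.96 and 10.43 at E14.5, a difference of 0.28 ± 0.21 (adjusted p = 0.45), with overlap between the ages. Which cells the Gata2 RNA came from was not tested. Sox18, which switches on Prox1 in the vein, differed by -0.26 ± 0.13 (adjusted p = 0.21), and Nr2f2, which encodes the venous factor COUP-TFII, by 0.01 ± 0.11 (adjusted p = 0.98). Flt4, which encodes VEGFR3, had 11.19, 11.15 and 11.25 at E16.5, against 11.23, 11.21 and 11.16 at E14.5, a difference of 0.00 ± 0.11 (adjusted p = 1). Pdpn, the mucin podoplanin of lymphatic endothelium, differed by -0.39 ± 0.17 (adjusted p = 0.14), Reln, which encodes the secreted protein reelin, by 0.44 ± 0.15 (adjusted p = 0.055) and Itga9, a valve integrin, by -0.14 ± 0.11 (adjusted p = 0.46). The count of identity genes called was 5 in each of 4 fits that left out 1 array, E14.5 replicate 1, 2 or 3 or E16.5 replicate 2. No single-symbol cluster represented Ccl21a.

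Part of the genes of lymphatic valves and collecting vessels rose. On that list, 13 of 32 measured members rose, 2 fell and 17 did not pass the test, and the rises were 40.6% of the list, with a median difference of 0.27. The count of calls stayed within 1.5 times of 15 when any single LEC array was left out. Gja4, which encodes a connexin, the gap junction protein of valve-forming cells, had 9.51, 9.31 and 9.66 at E16.5, against 6.96, 7.41 and 6.68 at E14.5. The ages were separated by nearly 2 units, and Gja4 rose 5.55-fold, by 2.47 ± 0.15 (adjusted p = 9e-09). Neo1, the receptor neogenin, had 9.29, 8.86 and 9.20 at E16.5, against 6.57, 7.36 and 6.93 at E14.5 and rose by 2.17 ± 0.16 (adjusted p = 7.3e-08). Clec2d, a C-type lectin that natural killer cell receptors bind, rose by 1.60 ± 0.13, and Efnb2, the ephrin B2 ligand needed for valves and collecting vessels, had 9.63, 9.32 and 9.64 at E16.5, against 8.09, 8.12 and 8.07 at E14.5 and rose by 1.43 ± 0.10.

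Of the transcription factors that govern valves, Foxc2 and Nfatc1 both rose. Foxc2 had 8.45, 8.48 and 8.75 at E16.5, against 7.23, 7.70 and 7.57 at E14.5, with every E16.5 array above every E14.5 array, and rose by 1.06 ± 0.17 (adjusted p = 0.00038). Nfatc1 had 9.25, 9.12 and 9.37 at E16.5, against 8.42, 8.69 and 8.48 at E14.5 and rose by 0.72 ± 0.10 (adjusted p = 9.5e-05). Gja1, which encodes the other main connexin of valves, differed by 0.03 ± 0.11 (adjusted p = 0.92). The 2 members that fell were Cdh11, a mesenchymal cadherin (-0.62 ± 0.19), and Dchs1, a large atypical cadherin (-0.45 ± 0.11). The median difference of E16.5 replicate 2 from the other E16.5 arrays was -0.12 over this list, members called or not. It was -0.90 over the macrophage markers. Replicate 2 was the lowest E16.5 array for Gja4, Neo1, Efnb2 and Nfatc1, but not for Foxc2. Whether macrophage RNA takes part in these rises was not tested. In fits with 1 array fewer the test was not passed by Cdh11 without E16.5 replicate 1 or 2 or E14.5 replicate 1 or 3 (-0.65 to -0.50) and Dchs1 without E16.5 replicate 1 or E14.5 replicate 1 (-0.41).

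**Figure D2:**
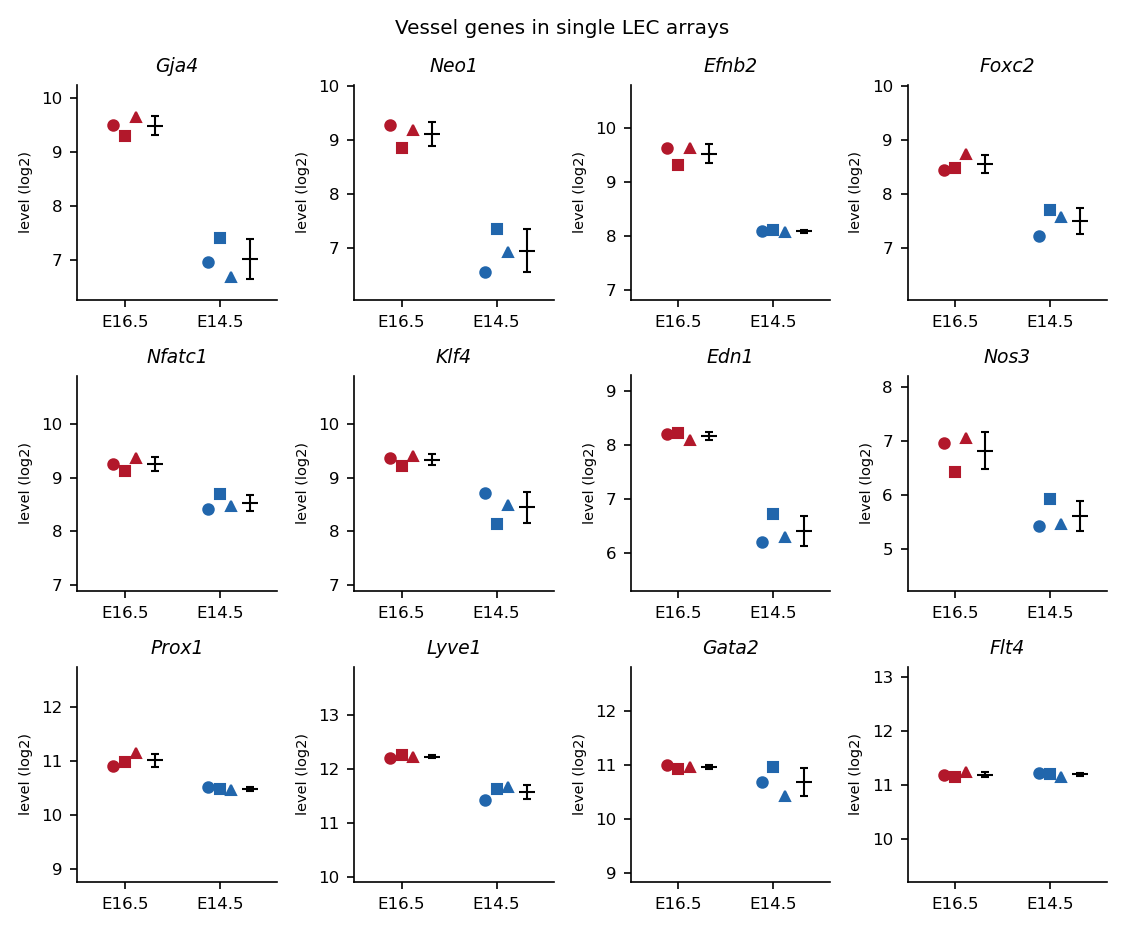
Log2 levels of 12 vessel genes in the single LEC arrays, with E16.5 left (red) and E14.5 right (blue), circles, squares and triangles for replicates 1, 2 and 3, and a bar for the mean with its SD. All panels span the same range. The ages are apart for the valve and flow genes of the upper rows and for Prox1 and Lyve1, and overlap for Gata2 and Flt4.

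Genes known to respond to flow were tested next. Shear stress from lymph flow raises KLF2 and KLF4 in endothelium, and Klf4 had 9.37, 9.21 and 9.40 at E16.5, against 8.71, 8.13 and 8.50 at E14.5, with all E16.5 arrays above, and rose by 0.88 ± 0.17 (adjusted p = 0.0014). Klf2 did not pass the test, with 8.45, 8.65 and 8.47 at E16.5, against 8.37, 8.15 and 8.45 at E14.5 and a difference of 0.20 ± 0.13 (adjusted p = 0.36). On the flow list, 8 of 17 measured members rose, 0 fell and 9 did not pass the limma test (0 lower at an unadjusted p under 0.05), with a median difference of 0.32. The rises were 47.1% of the list, against 8.07% of all genes. Besides Gja4 and Klf4, Nos3, the endothelial nitric oxide synthase, had 6.96, 6.43 and 7.06 at E16.5, against 5.43, 5.92 and 5.45 at E14.5 and rose by 1.22 ± 0.17 (adjusted p = 8.9e-05), and Ccn1, a secreted target of YAP and TAZ, rose by 0.52 ± 0.09. Piezo1, the mechanically gated channel, differed by 0.32 ± 0.11 (adjusted p = 0.068). Klf4 and Ccn1 also belong to genes that cells can induce while they are handled. Of such immediate early genes, 8 of 17 measured members rose, 0 fell and 9 did not pass the limma test (0 lower at an unadjusted p under 0.05), led by Fosb (0.98 ± 0.13), Fos (0.89 ± 0.13), Jun (0.86 ± 0.10) and the phosphatase Dusp1 (0.84 ± 0.09). Their part in the flow result was not tested.

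The vasoactive and coagulation genes had the highest median of the 30 endothelial and program lists, 0.43. Of this list, 10 of 19 measured members rose, 2 fell and 7 did not pass the test. In BEC over the same interval 6 rose and 1 fell by limma, with a median of 0.39. The LEC change lay above the BEC change for 3 members and below it for 1. Edn1, which encodes the vasoconstrictor peptide endothelin 1, had 8.21, 8.23 and 8.09 at E16.5, against 6.20, 6.72 and 6.29 at E14.5. The arrays of an age lay close together and far from those of the other age, and Edn1 rose by 1.78 ± 0.19 (adjusted p = 6.3e-06), which is 3.42-fold. F8, coagulation factor VIII, which lymphatic endothelium is known to make, had 7.59, 7.32 and 7.53 at E16.5, against 5.87, 6.23 and 5.91 at E14.5 and rose by 1.48 ± 0.16 (adjusted p = 5.7e-06). Ptgs2, the inducible cyclooxygenase, rose by 1.36 ± 0.15. The 2 members that fell were the plasminogen activators, Plau (-0.68 ± 0.12, adjusted p = 0.00072) and Plat (-0.55 ± 0.15, adjusted p = 0.016). E16.5 replicate 2 differed from the other E16.5 arrays by a median of -0.01 over this list, members called or not. Replicate 2 was the lowest E16.5 array for F8 but not for Edn1. After 1 array was left out, no call remained for Plat without E16.5 replicate 1 or E14.5 replicate 1 or 2 (-0.54 to -0.49).

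The VEGFC pathway, which drives lymphatic sprouting, gave few calls. Of the genes of VEGFC and VEGFR3 signalling, 2 of 23 measured members rose, 1 fell and 20 did not pass the test, with a median difference of -0.04, close to that of all genes. Vegfc itself differed by -0.16 ± 0.13 (adjusted p = 0.48). Ptpn14, a phosphatase that limits VEGFR3 signalling, rose by 0.58 ± 0.12, Pik3r1, the regulatory subunit of PI3 kinase, rose by 0.52 ± 0.10, and the third call was the fall of Nrp2, which did not hold in 5 of the 6 fits with 1 array left out. The share that rose was 8.7%, close to the 8.07% of all genes. The count of calls was 5 without the E18.5 arrays, with the mean of a gene's clusters, with a robust variance trend and with array weights. Adamts3 and Spred2 were not called in their brightest clusters (-0.15 and -0.24). The other clusters of Adamts3 differed by -0.98 to 0.28, most of them downward, and the other cluster of Spred2 differed by -0.42.

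Of the angiopoietin and TIE genes, Tek, the receptor TIE2, rose by 0.54 ± 0.10 (adjusted p = 0.0018), and its ligand Angpt2, which supports lymphatic remodelling, rose by 0.50 ± 0.12 (adjusted p = 0.0071). Angpt1, the other ligand, had 4.51, 4.94 and 4.05 at E16.5, against 6.23, 5.60 and 5.41 at E14.5 and fell by 1.25 ± 0.27 (adjusted p = 0.0037), with no overlap. At E16.5, 2 of its 3 arrays lay below the dim bound. Of 7 adrenomedullin genes, Adm, the peptide that lymphatic growth requires, rose by 0.94 ± 0.24 and its receptor Calcrl rose by 0.57 ± 0.10 (adjusted p = 0.00049). The other 5 did not pass the test. Leaving out 1 array ended the call of Adm without E14.5 replicate 1 or 3 (0.79 to 0.89).

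The Notch list held more falls than rises. Of its 18 measured members 1 rose, 4 fell and 13 did not pass the test, with a median difference of -0.02. The rises were 5.6% of the list, against 8.07% of all genes, and the falls 22.2%, against 5.72%. Jag1, a Notch ligand, rose by 0.57 ± 0.12, and the feedback inhibitor Nrarp, a Notch target, had 6.91, 7.25 and 7.36 at E16.5, against 7.88, 7.71 and 7.87 at E14.5 and fell by 0.65 ± 0.11 (adjusted p = 0.00065). Mfng, a glycosyltransferase that tunes Notch receptors, fell by 0.60 ± 0.13, the receptor Notch4 fell by 0.48 ± 0.12, and the ligand Dll4 fell by 0.39 ± 0.12. Without E14.5 replicate 3 the count of Notch calls was 3 instead of 5. The threshold was missed by Notch4 without E16.5 replicate 3 or E14.5 replicate 2 or 3 (-0.45 to -0.41) and Dll4 without E16.5 replicate 1 or 2 or E14.5 replicate 1 or 3 (-0.43 to -0.29).

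Some general endothelial genes rose. On the pan-endothelial list, 7 of 20 measured members rose, 1 fell and 12 did not pass the test, with a median of 0.26. Emcn, the sialomucin endomucin, rose by 0.91 ± 0.13, Clec14a, an endothelial C-type lectin, rose by 0.88 ± 0.21, and the adhesion molecule Esam rose by 0.77 ± 0.21. Pecam1, the platelet and endothelial adhesion molecule, had 10.48, 10.47 and 10.60 at E16.5, against 10.12, 10.09 and 9.96 at E14.5 and rose by 0.46 ± 0.10 (adjusted p = 0.004). Cdh5, which encodes VE-cadherin, differed by 0.28 ± 0.09 (adjusted p = 0.054). The 1 fall was that of Sox17, a transcription factor of arterial endothelium, by 0.72 ± 0.16 (adjusted p = 0.0059). Fits with 1 array fewer lost the call of Clec14a without E14.5 replicate 3 (0.67) and Esam without E16.5 replicate 1 or 3 or E14.5 replicate 3 (0.42 to 0.77).

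Several genes better known from blood endothelium rose in the LEC. On the list of blood endothelial identity, 6 of 18 measured members rose, 2 fell and 10 did not pass the test, with a median of 0.35. Aqp1, the water channel aquaporin 1, had 6.80, 7.43 and 7.72 at E16.5, against 6.45, 6.66 and 5.40 at E14.5 and rose by 1.15 ± 0.30 (adjusted p = 0.015). Nrp1, the co-receptor for VEGFA and class 3 semaphorins, had 6.96, 6.39 and 6.90 at E16.5, against 6.20, 5.79 and 5.15 at E14.5 and rose by 1.04 ± 0.21 (adjusted p = 0.0029), and Jam2, a junctional adhesion molecule below the dim bound at E14.5, rose at least 1.17-fold (adjusted p = 0.005). The 2 members that fell were Sox17 and Notch4. Without E14.5 replicate 3 or E16.5 replicate 3 the count of calls was 5 instead of 8. Among endothelial junction genes, 4 of 19 measured members rose, 1 fell and 14 did not pass the test, and beside Jam2, Esam and Pecam1 the polarity gene Pard6g rose by 0.70 ± 0.12, while Cdh2, which encodes N-cadherin, fell by 0.54 ± 0.14. The count of junction calls was 3 without replicate 3 of either age and 8 with array weights. With 1 array left out, the call was lost for Aqp1 without E16.5 replicate 2 or 3 or E14.5 replicate 3 (0.76 to 1.09) and Cdh2 without E16.5 replicate 3 or E14.5 replicate 3 (-0.50 to -0.46).

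Genes of caveolae and vesicle transport rose without any fall. Caveolae are flask-shaped membrane pits that carry cargo and buffer membrane tension. Of this list, 10 of 19 measured members rose, 0 fell and 9 did not pass the limma test (0 lower at an unadjusted p under 0.05). The rises were 52.6% of the list, against 8.07% of all genes. The list also holds the receptor genes Lyve1, Stab1, Stab2 and Mrc1. Cav1, the main caveolin of endothelium, had 10.61, 10.48 and 10.45 at E16.5, against 9.55, 9.64 and 9.45 at E14.5. Every E16.5 array was above every E14.5 array, and Cav1 rose by 0.97 ± 0.11 (adjusted p = 1.7e-05). Cav2, its partner, had 9.30, 9.21 and 9.28 at E16.5, against 8.25, 8.27 and 8.24 at E14.5 and rose by 1.01 ± 0.10 (adjusted p = 1.9e-06). Aqp1 and Stab2, described above, complete the 4 largest changes of the list.

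Part of the cell cycle genes fell. On the list of cell cycle and DNA replication, 0 of 35 measured members rose, 17 fell and 18 did not pass the limma test (0 higher at an unadjusted p under 0.05), which is 48.6% of the list, against 5.72% of all genes, and the median difference was -0.37. Tk1, thymidine kinase, had 7.98, 7.89 and 8.05 at E16.5, against 8.62, 8.71 and 8.78 at E14.5 and fell by 0.73 ± 0.13 (adjusted p = 0.001). Cdt1, which licenses origins of replication, had 7.50, 7.71 and 7.85 at E16.5, against 8.47, 8.35 and 8.20 at E14.5 and fell by 0.65 ± 0.13 (adjusted p = 0.0022). Both genes were lower in each E16.5 array than in any E14.5 array. Tyms, thymidylate synthase, fell by 0.65 ± 0.15, and Mcm7, a subunit of the replicative helicase, fell by 0.64 ± 0.12. Mcm5, another subunit, had 8.82, 8.80 and 8.86 at E16.5, against 9.56, 9.38 and 9.43 at E14.5 and fell by 0.63 ± 0.10 (adjusted p = 0.0003). Mki67, the usual marker of cycling cells, had 10.05, 10.10 and 10.0 at E16.5, against 10.25, 10.24 and 10.16 at E14.5 and did not pass the test (-0.16 ± 0.09, adjusted p = 0.26). The changes were small, and the largest fall on the list was 1.65-fold.

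Promoters of the called cell cycle genes were searched on both strands for letters that E2F factors (TTTCCCGC and TTTGGCGC) and the DREAM complex (TTTGAA) are known to bind. Each promoter ran from 250 bases before to 50 bases after the start site (RefSeq, GRCm38.p6), and 15 of the 17 genes had one. TTTGGCGC was found in Cdt1, Mcm5 and Mcm6 and in 0.51% of all 32851 promoters. TTTCCCGC was found in Mcm7 and in 1.07% of all. TTTGAA was found in 7 of the 15, namely Aurka, Cdc20, Cdk1, E2f8, Mcm2, Plk1 and Top2a, and in 17.89% of all. These 7 genes differed by -0.31 to -0.54. A match is a description of the letters and not of binding. The promoters of the 2 called genes with the largest falls that hold such letters are shown with the letters in capitals. They lie at chr8:122567765-122568064 on the plus strand (Cdt1) and at chr5:138171834-138172133 on the minus strand (Mcm7). In fits with 1 array fewer the test was not passed by Aurka without E16.5 replicate 1 or 3 or E14.5 replicate 1 or 3 (-0.32 to -0.27) and Cdc20 without any 1 of the 6 LEC arrays (-0.55 to -0.50). After 1 array was left out, no call remained for Cdk1 without E14.5 replicate 1 (-0.37) and E2f8 without any 1 of the 6 LEC arrays (-0.41 to -0.29). Leaving out 1 array ended the call of Top2a without E16.5 replicate 3 or E14.5 replicate 3 (-0.36 to -0.31).
Cdt1: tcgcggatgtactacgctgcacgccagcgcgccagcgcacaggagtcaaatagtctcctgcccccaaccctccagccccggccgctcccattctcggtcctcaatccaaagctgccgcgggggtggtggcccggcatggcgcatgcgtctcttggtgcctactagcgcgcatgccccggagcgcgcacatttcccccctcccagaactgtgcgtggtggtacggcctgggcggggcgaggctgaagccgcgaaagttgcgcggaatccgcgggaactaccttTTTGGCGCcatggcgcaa
Mcm7: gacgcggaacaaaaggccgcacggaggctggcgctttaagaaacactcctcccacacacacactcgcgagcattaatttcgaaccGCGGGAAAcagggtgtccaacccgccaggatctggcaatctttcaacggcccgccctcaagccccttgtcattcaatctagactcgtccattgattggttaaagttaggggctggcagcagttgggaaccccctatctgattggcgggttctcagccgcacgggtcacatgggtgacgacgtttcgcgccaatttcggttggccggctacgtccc

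Some genes that restrain the cell cycle rose. On the list of cyclin-dependent kinase inhibitors and quiescence, 6 of 16 measured members rose, 1 fell and 9 did not pass the test, and with array weights 11 in place of 7 were called. Cdkn1c, which encodes the imprinted inhibitor p57, had 9.68, 9.53 and 9.89 at E16.5, against 8.75, 8.85 and 8.83 at E14.5 and rose by 0.89 ± 0.10 (adjusted p = 1.2e-05). Rb1, the retinoblastoma protein that holds E2F factors in check, rose by 0.80 ± 0.14, and Ccng2, an atypical cyclin of quiescent cells, rose by 0.68 ± 0.13. Cdkn2d was the 1 member that fell, by 0.44 ± 0.12 (adjusted p = 0.033). Replication-dependent histone genes, examined after their values were seen, had 1 rise (H2bc4, 0.79 ± 0.22) and 16 falls among 27 measured genes, with a median of -0.46. H4c6 fell the most, with 9.41, 9.12 and 9.35 at E16.5, against 10.47, 10.56 and 10.61 at E14.5. Their values are uncertain one by one, since probes of a histone gene may bind its near-identical copies. The threshold was missed by Cdkn2d without any 1 of the 6 LEC arrays (-0.46 to -0.39) and H2bc4 without E16.5 replicate 1 or 2 or E14.5 replicate 2 or 3 (0.64 to 0.81).

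Oncofetal growth genes, which are active in embryonic and dividing tissue, gave 3 falls. On that list, 1 of 18 measured members rose, 3 fell and 14 did not pass the test, and the 1 rise was that of Cdkn1c. The shares were 5.6% and 16.7%, against 8.07% rising and 5.72% falling of all genes. Hmga2, a chromatin protein of fetal growth, had 6.64, 7.19 and 6.82 at E16.5, against 7.65, 7.77 and 7.61 at E14.5 and fell by 0.79 ± 0.15 (adjusted p = 0.0011). Lin28b, the RNA-binding protein that blocks let-7 maturation, fell by 0.54 ± 0.15 (adjusted p = 0.021), and Igf2bp1, an RNA-binding protein of the same fetal program, fell by 0.38 ± 0.10 (adjusted p = 0.015). The count of calls was 2 without E14.5 replicate 1 or without E16.5 replicate 3 and 8 with array weights. Of the 12 insulin-like growth factor genes, Igfbp7 rose by 1.17 ± 0.13, Igf1 rose by 0.54 ± 0.11 and the insulin receptor Insr rose by 0.50 ± 0.14. Igfbp2 fell by 0.80 ± 0.13 and Igfbp4 fell by 0.64 ± 0.13. Fits with 1 array fewer lost the call of Lin28b without E16.5 replicate 3 or E14.5 replicate 1 or 2 (-0.53 to -0.45) and Igf2bp1 without E16.5 replicate 1 or 3 or E14.5 replicate 1 (-0.36 to -0.32). With 1 array left out, the call was lost for Insr without E16.5 replicate 1 or 3 or E14.5 replicate 1 or 2 (0.45 to 0.51).

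Matrix genes changed in both directions. Among basement membrane genes, 6 of 22 measured members rose, 3 fell and 13 did not pass the test. The shares were 27.3% and 13.6%, against 8.07% rising and 5.72% falling of all genes. Eln, which encodes elastin, rose by 0.71 ± 0.19, and Tnc, which encodes tenascin C, rose by 0.65 ± 0.11. Col15a1, a collagen of vascular basement membranes, had 6.55, 6.70 and 6.85 at E16.5, against 7.74, 7.52 and 7.34 at E14.5 and fell by 0.83 ± 0.11 (adjusted p = 7.6e-05). The count of calls was 4 without E14.5 replicate 1 and 5 without E16.5 replicate 3. Among fibrillar and stromal matrix genes, 4 of 15 measured members (26.7%) rose, 1 (6.7%) fell and 10 did not pass the test. Fbln2, an elastic fibre protein, had 8.33, 8.10 and 8.73 at E16.5, against 6.61, 6.86 and 6.44 at E14.5 and rose by 1.75 ± 0.20 (adjusted p = 1.2e-05), Postn, which encodes periostin, rose by 1.41 ± 0.20, Fbln5 rose by 1.04 ± 0.18 and Fbln1 fell by 0.79 ± 0.12. Of 14 fibroblast markers 3 rose (Postn, Dpt and Col3a1), which is 21.4%, against 8.07% of all genes, and 0 fell by limma. At an unadjusted p under 0.05, 5 were higher and 1 was lower. Dpt lay below the dim bound in the mean of both ages, and the summed level of the list was 11.18 to 11.40 at E16.5 and 11.02 to 11.16 at E14.5. Col1a1 and Col1a2, the chains of type I collagen, differed by -0.07 ± 0.18 and -0.06 ± 0.15. The part of fibroblast RNA in the matrix changes was not tested. In fits with 1 array fewer the test was not passed by Eln without E16.5 replicate 3 or E14.5 replicate 1 (0.53 to 0.64).

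Genes of proteases that act on this matrix changed both ways. On the list, 5 of 16 measured members rose, 2 fell and 9 did not pass the test. The shares were 31.2% and 12.5%, against 8.07% rising and 5.72% falling of all genes. Adamts5, a versican- and aggrecan-cleaving protease, had 7.77, 7.49 and 7.68 at E16.5, against 5.57, 5.37 and 5.28 at E14.5 and rose by 2.24 ± 0.13 (adjusted p = 8.1e-09), a 4.73-fold change with no overlap. Adamts1, of the same family, rose by 1.20 ± 0.13, and Timp2, an inhibitor of metalloproteinases, rose by 1.17 ± 0.13. Mmp2, the gelatinase A that is activated at the cell surface, had 8.35, 8.41 and 8.57 at E16.5, against 9.55, 9.25 and 9.49 at E14.5 and fell by 0.99 ± 0.13 (adjusted p = 6.3e-05).

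Guidance genes, which steer axons and also vessels, changed both ways. On the list, 6 of 26 measured members rose, 4 fell and 16 did not pass the test. The shares were 23.1% and 15.4%, against 8.07% rising and 5.72% falling of all genes. Plxna4, a receptor of class 3 semaphorins, had 8.66, 8.37 and 8.46 at E16.5, against 6.75, 7.11 and 7.08 at E14.5 and rose by 1.52 ± 0.18 (adjusted p = 1.4e-05), and Slit3, a ligand of ROBO receptors, rose by 0.82 ± 0.15. Sema4c, a transmembrane semaphorin, fell by 0.95 ± 0.15 (adjusted p = 0.00029). Sema3a, the repulsive ligand that shapes lymphatic valves, is on the valve list as well, and it was among the rises (0.70 ± 0.11).

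Of the BMP and TGF-beta genes, 5 of 25 measured members rose, 0 fell and 20 did not pass the limma test (2 lower at an unadjusted p under 0.05). Tgfb3 rose by 1.13 ± 0.11 (adjusted p = 1.8e-06), Id2, an inhibitor of helix-loop-helix factors, rose by 0.84 ± 0.19, and the receptor Bmpr2 rose by 0.58 ± 0.10. The count of calls ran between 3 without E14.5 replicate 3 and 10 with array weights. On the WNT list, 3 of 23 measured members rose, 4 fell and 16 did not pass the test. The shares were 13.0% and 17.4%, against 8.07% rising and 5.72% falling of all genes. Dkk3 rose by 0.95 ± 0.19 and the receptor Fzd6 rose by 0.74 ± 0.12. Nkd1, a feedback inhibitor of WNT signalling, had 6.53, 6.56 and 6.49 at E16.5, against 7.37, 6.95 and 7.38 at E14.5 and fell by 0.70 ± 0.12 (adjusted p = 0.00065), and Ror2, a receptor of WNT5A, fell by 0.57 ± 0.13. After 1 array was left out, no call remained for Id2 without E14.5 replicate 3 (0.65).

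Most genes of cholesterol synthesis fell. Of its list, 0 of 14 measured members rose, 8 fell and 6 did not pass the limma test (0 higher at an unadjusted p under 0.05), with a median of -0.43, the lowest of the 30 lists. Insig1, the sterol-sensing retention factor for SREBP and itself an SREBP target, had 9.13, 9.26 and 8.98 at E16.5, against 9.88, 10.02 and 10.01 at E14.5 and fell by 0.84 ± 0.12 (adjusted p = 0.00013). Mvd, mevalonate diphosphate decarboxylase, had 6.32, 6.29 and 6.80 at E16.5, against 7.34, 7.15 and 7.37 at E14.5 and fell by 0.82 ± 0.15 (adjusted p = 0.0012). Both were lower in every E16.5 array. Hmgcs1, the synthase that feeds the mevalonate pathway, fell by 0.74 ± 0.13, and Sqle, squalene epoxidase, fell by 0.65 ± 0.10. The same list had 12 falls and 0 rises (also 0 higher at an unadjusted p under 0.05) in the BEC by limma over the same interval.

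**Figure D3:**
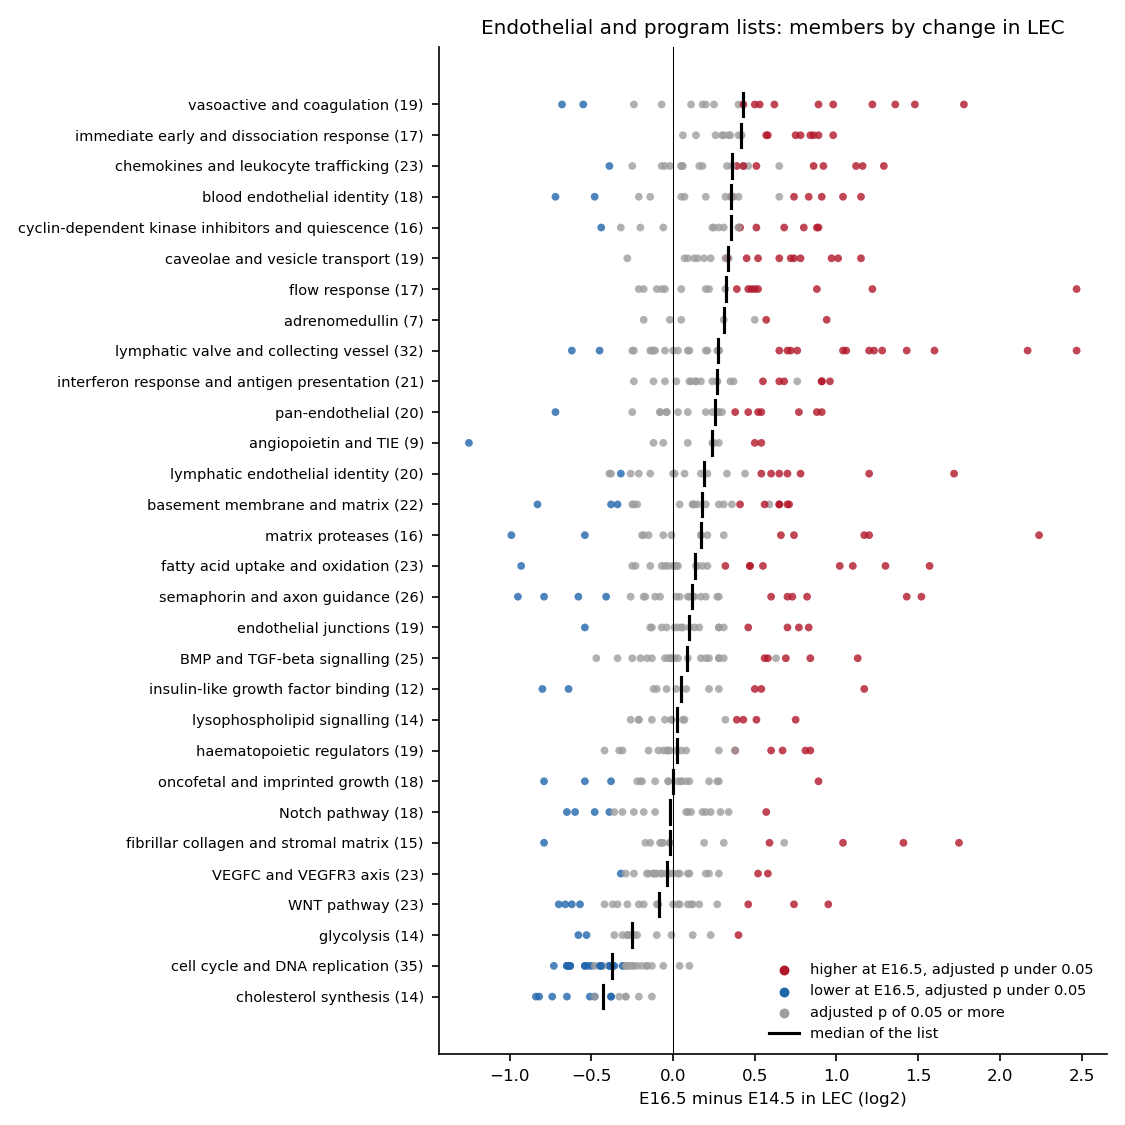
Each point is 1 measured member of the named list (number of members in brackets), at its difference of E16.5 minus E14.5 in LEC (log2), and the black bar is the median of the list. Red members rose, blue members fell and grey members did not pass at an adjusted p of 0.05. Lists run from vasoactive and coagulation genes (median 0.43) at the top to cholesterol synthesis (median -0.43) at the bottom.

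Genes of fatty acid uptake led the rises of the fatty acid list. On the list, 8 of 23 measured members rose, 1 fell and 14 did not pass the test. The rises were 34.8% of the list, against 8.07% of all genes. Fabp4, the fatty acid carrier of endothelium and fat, had 7.93, 8.22 and 8.14 at E16.5, against 6.60, 6.60 and 6.38 at E14.5 and rose by 1.57 ± 0.15 (adjusted p = 1.9e-06). Cd36, the fatty acid translocase, had 8.81, 8.79 and 8.83 at E16.5, against 7.61, 7.40 and 7.52 at E14.5 and rose by 1.30 ± 0.16 (adjusted p = 1.8e-05), Pparg, the nuclear receptor that drives both, rose by 1.10 ± 0.15, and Lpl, lipoprotein lipase, rose by 1.02 ± 0.14. The 1 fall was that of Fabp5, another fatty acid carrier (-0.93, and -0.91 in its other cluster). The LEC change of Fabp5 minus its BEC change was -1.47. In BEC the list had 10 rises and 1 fall by limma, with a median of 0.30, against 0.14 in LEC. Fabp4 and Pparg are also adipocyte markers. The adipocyte list had 2 rises of 8, those 2 genes, while its defining marker Adipoq lay below the bound for dim genes at both ages. Glycolysis had 1 rise, Pfkm (0.40 ± 0.11), and 2 falls, Pgam1 (-0.58 ± 0.12) and Pfkl (-0.53 ± 0.15), among 14 genes. The glycolysis shares were 7.1% and 14.3%, against 8.07% rising and 5.72% falling of all genes. The count of glycolysis calls was 1 without E14.5 replicate 1 or 3 and 6 or 7 without the E18.5 arrays, with a filter on dim genes, with a robust variance trend or with array weights, and the median was -0.25. Leaving out 1 array ended the call of Pfkm without E16.5 replicate 1 or 3 or E14.5 replicate 1 or 3 (0.36 to 0.38) and Pfkl without E16.5 replicate 2 or E14.5 replicate 1 or 3 (-0.53 to -0.40).

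Chemokine and leukocyte trafficking genes rose in part. On that list, 8 of 23 measured members rose, 1 fell and 14 did not pass the test. The rises were 34.8% of the list, against 8.07% of all genes. Il7, the lymphocyte growth factor that LEC are known to supply, had 6.98, 7.35 and 7.09 at E16.5, against 5.80, 5.81 and 5.94 at E14.5 and rose by 1.29 ± 0.22 (adjusted p = 0.00049). Ccl2, a monocyte attractant, rose by 1.16 ± 0.14, and Ccl7, a related chemokine, rose by 0.92 ± 0.16. Cd274, which encodes the checkpoint ligand PD-L1, rose by 1.12 ± 0.19 (adjusted p = 0.00062). The 1 fall was that of the adhesion molecule Icam2 (-0.39 ± 0.11). The count of calls was 4 without E16.5 replicate 3 and 5 without E14.5 replicate 3 or E16.5 replicate 1. Among lysophospholipid genes, which guide lymphocyte exit into lymph, 4 of 14 rose and 0 fell by limma (1 lower at an unadjusted p under 0.05). The rises were Plpp1 (0.75 ± 0.10), Spns2, the exporter of sphingosine 1-phosphate (0.51 ± 0.13), Sphk1 (0.43 ± 0.14) and the receptor gene S1pr1 (0.39 ± 0.10), and the count was 1 without E16.5 replicate 3 and 2 without E16.5 replicate 1 or E14.5 replicate 1 or 3. The threshold was missed by Icam2 without E16.5 replicate 1 or 3 or E14.5 replicate 1 or 3 (-0.38 to -0.34) and Spns2 without E16.5 replicate 1 or 3 or E14.5 replicate 1 (0.45 to 0.50). Fits with 1 array fewer lost the call of Sphk1 without any 1 of the 6 LEC arrays (0.38 to 0.46) and S1pr1 without E16.5 replicate 3 or E14.5 replicate 3 (0.34 to 0.36).

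Interferon response and antigen presentation genes had 6 rises and 0 falls among 21 by limma (1 lower at an unadjusted p under 0.05), with a median of 0.27. B2m, the light chain of class I molecules, had 11.07, 11.02 and 11.07 at E16.5, against 10.06, 10.27 and 10.11 at E14.5 and rose by 0.91 ± 0.12 (adjusted p = 6.5e-05). Ifitm3, a membrane protein that restricts virus entry, had 9.29, 9.19 and 9.28 at E16.5, against 8.30, 8.29 and 8.28 at E14.5 and rose by 0.96 ± 0.11 (adjusted p = 1.4e-05). Tapbp, a loading factor for class I molecules, rose by 0.68 ± 0.13. Rtp4, below the dim bound at E14.5, rose at least 1.37-fold in the mean (adjusted p = 0.0039), but 1 of its 3 E16.5 arrays also lay below the bound. Promoters of the called members were searched for GAAANNGAA, the core letters of the interferon-stimulated response element. They were found in B2m, Ifitm3 and Stat2 of the 5 genes with a promoter, and in 8.56% of all promoters. The promoters of Ifitm3 (GRCm38.p6, chr7:141010695-141010994, minus strand) and B2m (chr2:122147437-122147736, plus strand) are shown with these letters in capitals. With 1 array left out, the call was lost for Stat2 without E16.5 replicate 1 or 3 or E14.5 replicate 1, 2 or 3 (0.47 to 0.57).
Ifitm3: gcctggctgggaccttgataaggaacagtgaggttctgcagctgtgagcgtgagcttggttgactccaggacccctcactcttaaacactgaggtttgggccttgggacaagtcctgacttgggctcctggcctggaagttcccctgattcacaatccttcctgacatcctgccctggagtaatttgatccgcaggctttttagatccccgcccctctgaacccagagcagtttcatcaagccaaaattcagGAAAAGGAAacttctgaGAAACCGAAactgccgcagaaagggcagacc
B2m: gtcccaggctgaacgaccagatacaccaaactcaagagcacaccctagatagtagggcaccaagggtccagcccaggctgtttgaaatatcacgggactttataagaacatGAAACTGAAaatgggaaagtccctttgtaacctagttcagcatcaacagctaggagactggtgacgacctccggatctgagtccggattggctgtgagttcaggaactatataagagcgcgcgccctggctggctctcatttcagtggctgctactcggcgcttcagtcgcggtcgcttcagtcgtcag

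Macrophage markers had the highest median difference of the 42 lists, 1.29. Of this list, 13 of 19 measured members rose, 0 fell and 6 did not pass the limma test (0 lower at an unadjusted p under 0.05). Pf4, a platelet chemokine that embryonic macrophages also express, rose by 2.50 ± 0.28, and C1qb, a complement component of macrophages, rose by 2.36 ± 0.28. Csf1r, the receptor that defines the lineage, had 8.54, 7.21 and 8.95 at E16.5, against 6.30, 6.28 and 5.94 at E14.5. The lowest of the 3 E16.5 arrays was replicate 2, as it was for F13a1 and Cd163. The summed level of the list was 12.27 to 13.07 at E16.5 and 11.59 to 11.81 at E14.5. Mrc1, the mannose receptor shared by macrophages and LEC, differed by 0.34 ± 0.23 (adjusted p = 0.4). Cd163, Aif1 and Cd14 lay below the dim bound at E14.5, and no marker lay below it at E16.5. Without E16.5 replicate 2 the same list had 13 calls. Whether macrophage RNA takes part in other changes was not tested.

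Part of the mast cell markers also rose. Of this list, 6 of 12 measured members rose, 0 fell and 6 did not pass the limma test (0 lower at an unadjusted p under 0.05), and the median was 0.92. Mcpt4 had 9.87, 10.16 and 9.96 at E16.5, against 6.93, 7.99 and 6.70 at E14.5, Mrgprb1, a receptor close in sequence to Mrgprb2, rose at least 2.27-fold (adjusted p = 0.00026), and Hpgds, the synthase of prostaglandin D2, rose by 2.41 ± 0.30. Tpsab1, a tryptase, rose by 1.58 ± 0.23. The summed level of the list was 14.63 to 14.69 at E16.5 and 13.56 to 14.08 at E14.5. Fcer1a lay below the dim bound at both ages and Mrgprb1 at E14.5. In the fit of the compared groups alone, 10 in place of 6 mast cell markers were called. E16.5 replicate 2 differed from the other E16.5 arrays by a median of -0.03 over the mast cell list. Ptprc, the pan-leukocyte phosphatase CD45, rose by 0.75 ± 0.23 (adjusted p = 0.037) and was the 1 call among 15 leukocyte markers, which had 0 to 4 calls under the alternatives. Haematopoietic regulators had 5 rises of 19, Spi1 (0.84 ± 0.24), Gfi1 (0.81 ± 0.24), Myb (0.67 ± 0.19), Kit (0.60 ± 0.15) and Fli1 (0.38 ± 0.09), with 1 to 3 calls without E16.5 replicate 1 or 3 or E14.5 replicate 1 or 3. In fits with 1 array fewer the test was not passed by Ptprc without E16.5 replicate 1, 2 or 3 or E14.5 replicate 2 or 3 (0.60 to 0.80) and Spi1 without E16.5 replicate 1 or E14.5 replicate 2 or 3 (0.68 to 0.86). After 1 array was left out, no call remained for Gfi1 without E16.5 replicate 1 or 3 or E14.5 replicate 1 or 3 (0.70 to 0.83) and Myb without E16.5 replicate 1 or 3 or E14.5 replicate 1 or 3 (0.51 to 0.66). Leaving out 1 array ended the call of Kit without E14.5 replicate 3 (0.47).

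Erythroid markers gave falls alone. Of 9 measured markers 5 fell and 0 rose by limma (also 0 at an unadjusted p under 0.05), and the summed level was 8.90 to 8.95 at E16.5 and 10.18 to 10.40 at E14.5. Besides the embryonic globins, Tfrc, the transferrin receptor of all dividing cells, fell by 0.69 ± 0.14 and Alas2, the erythroid enzyme of haem synthesis, fell by 0.67 ± 0.20. Of 7 platelet markers 2 rose, Pf4 and Itga2b (0.72 ± 0.14). Of the keratinocyte (16), mural cell (13) and skeletal muscle (12) markers 0 passed the limma test, and 2 in each of the 3 lists did at an unadjusted p under 0.05. Under some alternatives up to 3 mural and 1 each of the other markers were called. The keratinocyte markers were higher in E16.5 replicate 3, with a mean level of 5.94, against 5.25 and 5.23 in replicates 1 and 2. Of 10 neuron and Schwann cell markers Stmn2 rose by 2.37 ± 0.22 and Elavl4 fell (adjusted p = 0.014) with all 6 LEC arrays below the dim bound, and with 6 markers below the dim bound at both ages. Apoa2 was the 1 hepatocyte marker of 7 that changed (-0.91 ± 0.12). The threshold was missed by Alas2 without E16.5 replicate 1 or 3 or E14.5 replicate 2 or 3 (-0.68 to -0.57) and Elavl4 without E16.5 replicate 1 or E14.5 replicate 1 (-0.46 to -0.44).

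**Figure D4:**
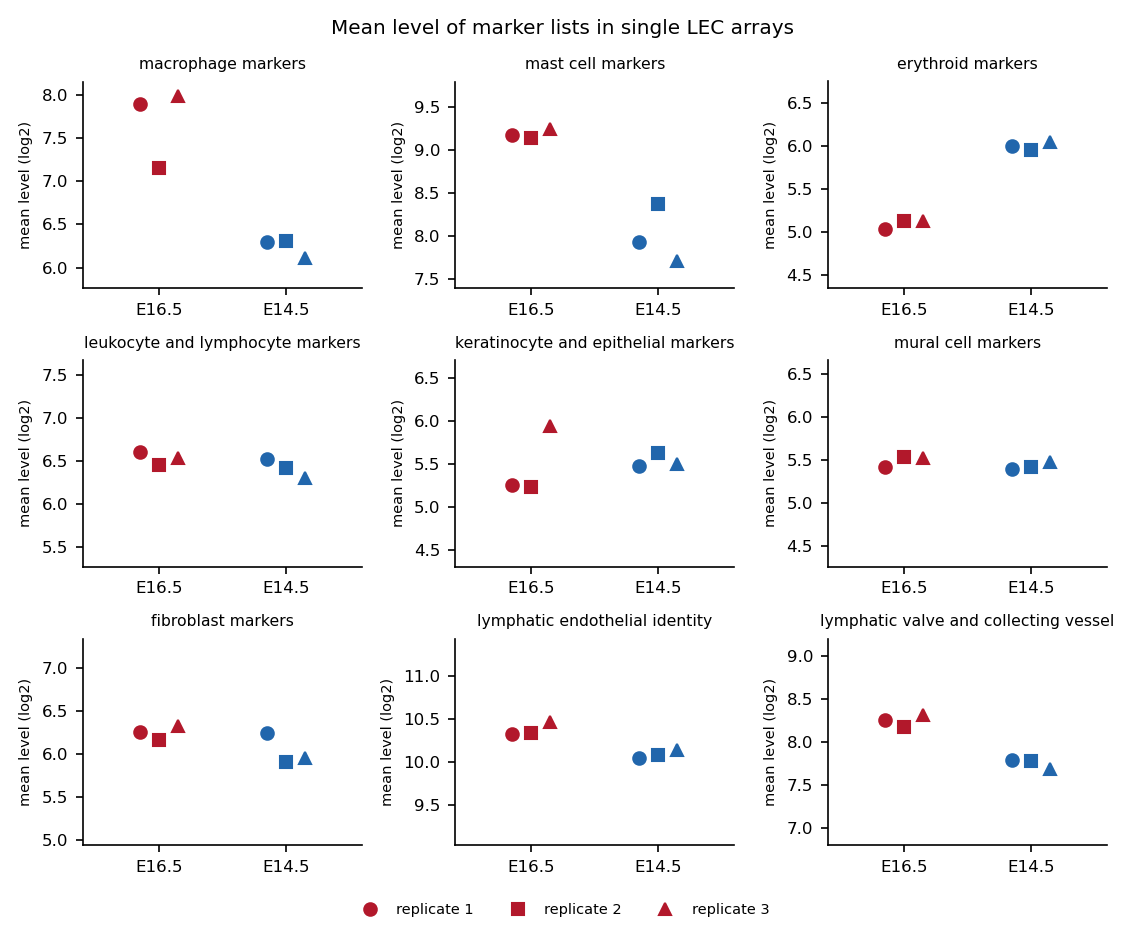
Mean log2 level of the members of 9 lists in each LEC array, with E16.5 left (red) and E14.5 right (blue) and circles, squares and triangles for replicates 1, 2 and 3. All panels span the same range. Macrophage and mast cell markers are higher and erythroid markers lower in every E16.5 array, and the macrophage level of E16.5 replicate 2 lies between the other E16.5 arrays and the E14.5 arrays.

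Few microRNA genes changed. The array has clusters for 296 microRNA genes, of which 4 rose (1.4%, against 8.07% of all genes) and 18 fell (6.1%, against 5.72%). These clusters cover the precursor region and not the mature RNA, and many lie near the dim bound. The study behind the isolation protocol concerned the repression of Prox1 by miR-181 in endothelium, and the miR-181 genes were examined for that reason, after their values were seen. Mir181d had 6.13, 6.30 and 6.32 at E16.5, against 6.86, 6.99 and 7.14 at E14.5 and fell by 0.75 ± 0.15 (adjusted p = 0.0029), with no overlap. Its neighbour Mir181c differed by -0.26 ± 0.11 (adjusted p = 0.14), and Mir181a-1, Mir181a-2, Mir181b-1 and Mir181b-2 by 0.15 ± 0.16, -0.01 ± 0.19, -0.09 ± 0.29 and -0.11 ± 0.17. The genes Mir23a, Mir27a and Mir24-2 lie next to each other. Mir27a rose by 0.72 ± 0.22 (adjusted p = 0.036), Mir24-2 rose by 0.44 ± 0.12 (adjusted p = 0.019), and Mir23a differed by 0.57 ± 0.22 (adjusted p = 0.11). Mir99a rose by 0.87 ± 0.19, and its host gene Mir99ahg rose by 0.70 ± 0.14. Fits with 1 array fewer lost the call of Mir27a without E16.5 replicate 1, 2 or 3 or E14.5 replicate 2 or 3 (0.63 to 0.77) and Mir24-2 without E16.5 replicate 1 or 3 or E14.5 replicate 3 (0.29 to 0.43).

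The mature sequences of these microRNAs show which share a seed, the stretch from base 2 to base 8 that pairs with target messages, given in capitals (RefSeq, GRCm38.p6, 5′ to 3′). Both miR-181 members carry the same seed, and the 3 products of the Mir23a cluster carry 3 different seeds.
miR-181d-5p: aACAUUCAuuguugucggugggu
miR-181c-5p: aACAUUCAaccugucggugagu
miR-23a-3p: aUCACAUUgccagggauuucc
miR-27a-3p: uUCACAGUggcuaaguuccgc
miR-24-3p: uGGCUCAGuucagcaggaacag
miR-99a-5p: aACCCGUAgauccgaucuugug

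The same interval was then compared in BEC. In BEC 1016 genes (5.10%) rose and 929 (4.66%) fell, and once each array was centred on the same median these counts were 1607 and 563. Of the genes that rose in LEC, 482 also rose in BEC, which is 30.0% of the LEC rises and 47.4% of the BEC rises. Of the genes that fell in LEC, 293 also fell in BEC, which is 25.7% of the LEC falls and 31.5% of the BEC falls. The intervals in LEC and BEC share no arrays, although their litters match. The difference between the LEC change and the BEC change was tested in the same fit. It was positive for 376 genes (1.89%) and negative for 148 (0.742%). Centred in this way, the counts were 277 and 237.

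The change in lymphatic identity genes differed between the cell types. The LEC change was above the BEC change for 15 of 20 identity genes and below it for 0 (limma; 1 at an unadjusted p under 0.05). In BEC 13 of the 20 fell and 0 rose (1 at an unadjusted p under 0.05 and 1 after centring on the same median). Prox1 in BEC had 6.08, 6.04 and 5.98 at E16.5, against 8.10, 7.84 and 7.98 at E14.5, a change of -1.94 ± 0.15, and the LEC change exceeded it by 2.48 ± 0.22 (adjusted p = 4e-06). Reln differed by -1.71 ± 0.15 in BEC and by 0.44 ± 0.15 in LEC, a gap of 2.15 ± 0.21 (adjusted p = 1.1e-05). Lyve1 changed by -0.14 ± 0.13 in BEC, and the gap was 0.79 ± 0.18 (adjusted p = 0.023). For Gata2 the changes were 0.28 ± 0.21 in LEC and -0.32 ± 0.21 in BEC, and the gap of 0.59 ± 0.29 did not pass the test (adjusted p = 0.42).

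The largest gaps above BEC were those of Ms4a4a (3.59 ± 0.42), Cd163 (3.40 ± 0.40), Klrb1f (3.35 ± 0.29), Pf4 (3.30 ± 0.40), F13a1 (3.28 ± 0.47) and Cp (3.04 ± 0.26). In BEC, Ms4a4a, Cd163, Klrb1f and Cp lay below the dim bound at both ages, and Cd163 and Klrb1f also in LEC at E14.5, so these gaps have no exact size. For 12 of 19 macrophage markers, Mrc1 among them, the LEC change lay above the BEC change. The valve list had 9 such genes of 32 and 1 whose LEC change lay below the BEC change (2 after centring). Gja4 changed by 0.20 ± 0.15 in BEC, and the gap was 2.27 ± 0.21 (adjusted p = 9.3e-06). Foxc2 changed by -0.27 ± 0.17 in BEC with a gap of 1.33 ± 0.24 (adjusted p = 0.0052), and Edn1 by 0.41 ± 0.19 with a gap of 1.37 ± 0.27 (adjusted p = 0.0082).

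The largest gaps below BEC were those of Galnt15, Mgll, Sele, Pcdh18, Olfml2a and Npnt. Galnt15, a glycosyltransferase that starts O-linked sugar chains, differed by -0.27 ± 0.15 in LEC and 1.89 ± 0.15 in BEC, a gap of -2.16 ± 0.22 (adjusted p = 1.6e-05). Mgll, monoacylglycerol lipase, had 6.35, 6.48 and 6.28 at E16.5, against 7.49, 7.24 and 7.43 at E14.5 in LEC and 9.24, 8.92 and 9.22 at E16.5, against 8.04, 8.39 and 8.29 at E14.5 in BEC, so that it was lower with age in all LEC arrays and higher in all BEC arrays, with a gap of -1.90 ± 0.24 (adjusted p = 0.00017). Sele, the leukocyte adhesion molecule E-selectin, differed by 0.65 ± 0.28 in LEC and 2.54 ± 0.28 in BEC, with a gap of -1.88 ± 0.39. The gap was -1.64 ± 0.23 for Pcdh18, a protocadherin, -1.52 ± 0.22 for Olfml2a and -1.49 ± 0.19 for Npnt, which encodes the integrin ligand nephronectin.

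Cell cycle genes gave 17 falls in LEC and 2 in BEC (0 in BEC after centring on the same median and 5 after another quantile normalization). The gap itself passed the test for 1 of the 35 genes, and for 3 after centring. Tk1 changed by -0.73 ± 0.13 in LEC and by -0.06 ± 0.13 in BEC, with a gap of -0.66 ± 0.19 (adjusted p = 0.073). Cholesterol genes fell in both cell types, with 8 falls in LEC, 12 in BEC and 0 gaps past the limma test among the 14 (3 at an unadjusted p under 0.05). Insig1 changed by -0.84 ± 0.12 in LEC and by -1.04 ± 0.12 in BEC. Of the caveolae list the LEC change lay above the BEC change for 5 of 19 genes and below it for 0 by limma (1 at an unadjusted p under 0.05). After centring these counts were 2 and 1. Among the 5 were Cav1, with a gap of 0.65 ± 0.16 (adjusted p = 0.037), and the receptor genes Lyve1, Stab2 and Mrc1. Mrc1 did not pass the test in LEC, and its BEC mean was 5.36 at E16.5, against 7.09 at E14.5. Of the blood endothelial list 8 of 18 rose in BEC, and for 4 the LEC change lay below the BEC change.

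**Figure D5:**
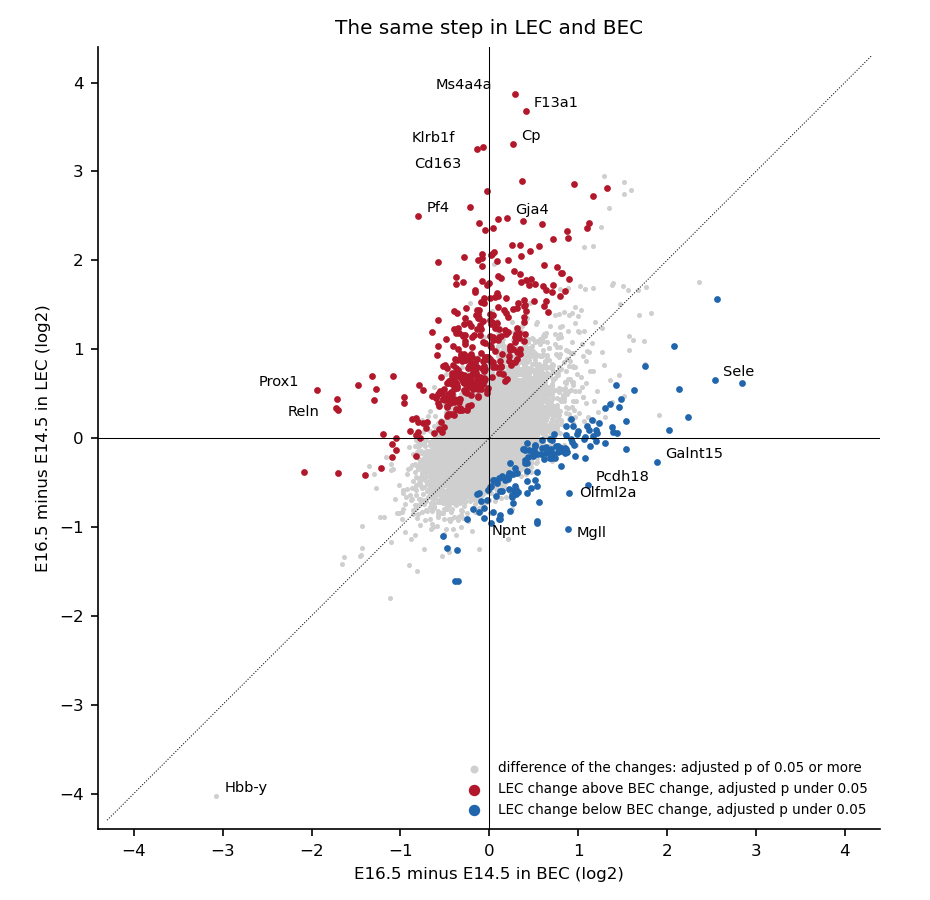
Each point is 1 gene, with its difference of E16.5 minus E14.5 in BEC (log2) on the horizontal axis and in LEC (log2) on the vertical axis. The dotted line marks equal change, and red and blue points had an LEC change above or below the BEC change at an adjusted p under 0.05. Most coloured points lie above the line (376, against 148 below it), with Prox1 and Reln at the left because they were lower at E16.5 in BEC.

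The next interval, from E16.5 to E18.5, shares the E16.5 arrays, so its values are given side by side without a test of the relation. In LEC 15.9% of genes rose and 18.5% fell over that interval. The spread of the values (interquartile range over all clusters) was 3.27 to 3.36 in the E18.5 LEC arrays, against 3.59 to 3.62 at E16.5, and its part in these counts was not tested. In the fit of the compared groups alone 2011 genes rose in place of 3170. Gja4 differed by 2.47 ± 0.15 from E14.5 to E16.5 and by -0.41 ± 0.15 from E16.5 to E18.5. Foxc2 differed by 1.06 ± 0.17 and then by 0.63 ± 0.17, Nfatc1 by 0.72 ± 0.10 and then by -0.12 ± 0.10, and Prox1 by 0.54 ± 0.15 and then by 0.11 ± 0.15. Gata2, which did not pass the test in the earlier interval, fell in the later one (-1.30 ± 0.21, adjusted p = 0.00011). Edn1 differed by 1.78 ± 0.19 and then by -0.63 ± 0.19, and Cav1 by 0.97 ± 0.11 and then by 0.23 ± 0.11. The macrophage gene F13a1 differed by 3.68 ± 0.33 and then by 1.26 ± 0.33, and Cp by 3.31 ± 0.19 and then by 1.57 ± 0.19. Of the cell cycle genes 17 of 35 fell in the earlier interval and 25 in the later one, where Mki67 differed by -0.14 ± 0.09 (adjusted p = 0.22).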

How the data were processed

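RNA of LEC and BEC was measured on 18 Affymetrix Mouse Gene 1.0 ST arrays, in 6 groups of 3. The values deposited by the authors are on a log2 scale and came from RMA in oligo 1.54.1, as the submitters' processing notes name them. RMA corrects background, brings arrays to a shared distribution and summarises probes, so differences are relative to other genes. The sources used here do not give the genome build of the annotation or say which arrays were normalized together. Arrays have no read depth, and their number limits the precision.

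Of 35556 clusters, 21789 had exactly 1 symbol, 1621 had several and 12146 are unnamed here. Each of 19938 genes was taken from its brightest cluster, with no filter on dim genes. limma 3.58.1 (R 4.3.3, eBayes without trend) estimated a mean per group from the 18 arrays, with 12 residual and 6.106 prior degrees of freedom. P-values are two-sided, Benjamini-Hochberg adjustment covered the 19938 genes of a contrast, and calls needed an adjusted p under 0.05. Errors after ± are limma standard errors (SE). The fit was tested on simulated data.

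The members and the 42 gene lists, with 636 of 683 genes measured, were chosen with earlier results of these data known. Named genes are the 12 largest rises and falls among calls whose LEC arrays do not overlap, the 6 largest gaps each way against BEC, up to 4 called members of each list with the largest change, and 28 landmark genes. Predicted genes, small RNA genes and genes below the dim bound were passed over. Other genes, microRNA and histone genes among them, were chosen after their values were seen. For Cbfa2t3 and Mecom, counted in lists only, another cluster went the opposite way at an unadjusted p under 0.05. LEC and BEC arrays of the same age and number come from matching litters per the labels. Their deviations from the group means correlated at -0.043 to 0.13, and the litter as a random block had a consensus correlation of 0.015. Alternatives to normalization, filtering, model and arrays used were fitted as well.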

Additional observations from a re-analysis of the deposited data

Results flagged for a closer look

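For 67 genes named in the report the change from E14.5 to E16.5 differed between LEC and BEC, by limma's test of the gap (LEC change minus BEC change) at an adjusted p under 0.05. The gap was positive for 51 of them and negative for 16. Fabp5, described with the fatty acid genes, is not counted here. A gap can come from a change in LEC, in BEC or in both. Over all genes 1.89% had a positive and 0.742% a negative gap that passed. No group was large enough for a check of single outlying arrays.

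Among macrophage markers and Ms4a4a the gaps were those of Ms4a4a (3.59), Cd163 (3.40), Pf4 (3.30), F13a1 (3.28), C1qb (2.33), Csf1r (2.15), Mrc1 (2.07) and Aif1 (1.25). Among mast cell genes they were those of Mrgprb2 (2.53), Mrgprb1 (2.37), Hpgds (1.82) and Tpsab1 (1.39), and the platelet marker Itga2b had a gap of 1.04. Lymphatic identity genes with a gap were Prox1 (2.48), Reln (2.15), Mmrn1 (2.01), Scn3a (1.84), Pdpn (1.31), Fgl2 (1.28), Stab2 (1.02), Lyve1 (0.79) and Flt4 (0.77). Of the genes above, Mrc1, Reln, Pdpn and Flt4 did not pass the test in LEC. In BEC their means were 5.36, 6.23, 5.69 and 9.16 at E16.5, against 7.09, 7.95, 7.39 and 9.94 at E14.5. Valve and collecting vessel genes were Gja4 (2.27), Neo1 (1.60), Foxc2 (1.33), Sema3a (1.11), Efnb2 (1.02), Clec2d (0.81) and Nfatc1 (0.57), and flow and vasoactive genes were Edn1 (1.37), Nos3 (1.04) and Ptgs2 (0.97).

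Other genes whose LEC change lay above the BEC change were Klrb1f (3.35), Cp (3.04), Pkhd1l1 (2.80), Anpep (1.91), Pard6g (1.78), Plxna4 (1.58), Adm (1.53), Adamts5 (1.52) and Il7 (1.52). Further ones were Slc7a8 (1.49), Ccl2 (1.27), Ccl7 (1.24), Dkk3 (1.15), Mir99ahg (1.03), Tgfb3 (1.03), Cdkn1c (0.93), Tnc (0.71), Cav1 (0.65) and Dusp1 (0.58). The LEC change lay below the BEC change for Galnt15 (-2.16), Mgll (-1.90), Sele (-1.88), Pcdh18 (-1.64), Olfml2a (-1.52), Npnt (-1.49), Sox17 (-1.27) and Plac8 (-1.26). It also did so for Nes (-1.22), Cdh11 (-1.05), Fbln5 (-1.03), Fabp4 (-1.0), Sema4c (-0.97), Vegfc (-0.93), Col15a1 (-0.88) and Nrarp (-0.73). For 13 of the 67 genes at least 1 of the 4 group means lay below the dim bound (Ms4a4a, Cd163, Klrb1f, Cp, Pkhd1l1, Mrgprb2, Mrgprb1, C1qb, Aif1, Scn3a, Il7, Slc7a8 and Plac8), so that their gaps have no exact size. Whether the number of cells of other types in the LEC samples, or of lymphatic or other cells in the BEC samples, moves these gaps was not tested.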

How the results depend on the processing

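The LEC change was fitted under 10 alternatives beside leaving out single arrays. Of 2749 genes called, the count stayed within 1.5 times under 9 of them and was 4544 with array weights. The count of changes of 1 or more (318) stayed within 1.5 times under all 10. With 1 array left out, the LEC calls numbered 1758 to 2293, and the changes of 1 or more 273 to 358. The BEC calls (1945) numbered 3318 without the E18.5 arrays, 4022 with array weights and 850 to 1544 with 1 array left out. The gaps between LEC and BEC (524) numbered 839 in the fit of the 4 compared groups, which is the same fit as the one without the E18.5 arrays, 1215 with array weights and 310 to 490 with 1 array left out. The LEC calls of the later interval (6854) numbered 5522 to 6688 with 1 array left out. Same-numbered LEC arrays of the 2 ages come from different litters, and their deviations from the group means correlated at 0.051, -0.119 and 0.032, and 1 of the 3 was closest to its own number, so the numbers were not taken as pairs. With the number as a replicate block, the counts were 2666 in LEC, 1850 in BEC, 484 for the gaps and 6707 for the later interval. With the litter as a random block they were 2751, 1944, 540 and 6855, and no call of a named gene changed. Fewer arrays leave fewer degrees of freedom. The cause of the higher counts with array weights was not tested.

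Of 209 genes named in the report, with Fabp5, Adamts3 and Spred2 not counted, 180 were called, and no direction reversed under any alternative among them. Leaving out 1 array ended the call of 42 of them, and 138 kept their call under every alternative. Outside the fits with 1 array fewer, 8 genes lost their call. They were Dll4 (-0.39), Esam (0.77) and Mir24-2 (0.44) in the fit of the compared groups alone, Cdh11 (-0.56) and Pcdh18 (-0.47) after another quantile normalization, E2f8 (-0.36) and Sphk1 (0.43, also with a robust variance trend) with the replicate block, and Top2a (-0.32) with the mean of its clusters. Reln, Cdh5 and Piezo1 were among 8 genes that passed the test under some alternatives only. Signal near the dim bound of 4.58 limits what can be said of dim genes such as most microRNA clusters.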
